A study of Homo sapiens with 15 samples.

Results

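The genes described here are 10 pluripotency and self-renewal factors: POU5F1, NANOG, KLF4, KLF5, MYC, LIN28B, BMI1, EZH2, HMGA1 and HMGA2. They were chosen by symbol, and all 10 were found among the 33158 symbols of the expression table. The study measured polyadenylated RNA in triple negative breast cancer cell lines to compare cancer stem cells (CSCs) with the other cells of the same line. Values are FPKM, fragment counts scaled by transcript length and library size, so a level can be compared between genes per length.

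Each of 5 groups held 3 libraries. SUM149PT and HCC1937 were sorted by flow cytometry on surface proteins into a CD44+ CD24-/low fraction, called CSCs, and the remaining cells, called non-CSCs, which gave 4 of the 5 groups. The fifth group was SUM159PT, a line that was not sorted and that the labels name as cancer stem cells, so it has no non-CSC fraction of its own. The labels give no treatment for any group. Each line was grown as recommended for it, so line and culture conditions cannot be told apart in comparisons between lines.

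The sort was visible in the RNA. CD24 was 7.97, 7.64 and 7.61 FPKM in SUM149PT CSCs and 147, 137 and 134 FPKM in the non-CSCs. HCC1937 had CD24 at 23.6, 22.5 and 23.9 FPKM in CSCs and 167, 141 and 142 FPKM in non-CSCs. CD24 therefore did not overlap between the fractions of either line. CD44 RNA was higher in SUM149PT CSCs (log2 fold change 0.39, SE 0.06, limma adjusted p = 0.00168) and was not called in HCC1937. PGR, the progesterone receptor, was at or near 0 in every library, and ESR1, the estrogen receptor, reached at most 1.86 FPKM.

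The SUM159PT libraries stood apart from the sorted ones. Their FPKM values summed to between 634746 and 652082, against 291276 to 366532 in the 12 sorted libraries. They had 8534 to 8670 genes at 1 FPKM or more, against 11249 to 11997. Their median gene above 0 was at 1.14 to 1.25 FPKM, against 2.61 to 3.47 FPKM. Fold changes of SUM159PT against the other lines are therefore given beside the median of all genes, and its FPKM levels below are as deposited. Sequencing depth cannot be read from FPKM values and is unknown.

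POU5F1 (OCT4) and NANOG are homeodomain transcription factors that hold embryonic stem cells in the pluripotent state, and POU5F1, KLF4 and MYC are among the factors that reprogram somatic cells. LIN28B blocks maturation of let-7 microRNAs, which repress HMGA2 and MYC among other targets. BMI1 and EZH2 belong to the Polycomb repressive complexes, which silence developmental and cell cycle inhibitor genes, and HMGA1 and HMGA2 are chromatin proteins abundant in embryos and many tumors.

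Promoter sequences are shown for 4 of the members, picked after the values were seen: NANOG, KLF4 and KLF5 were lower together in SUM149PT CSCs, and HMGA1 was higher. BMI1 was also lower there and EZH2 also higher, and their windows are not shown. The sequences are RefSeq windows of 250 bases upstream of a gene start on GRCh38.p14, and 7 of the 10 members were matched by symbol. Capitals mark matches, on either strand, to the octamer core TTTGCAT, the GC box GGGCGG bound by KLF and Sp factors, the CACCC box CCACCC and the MYC and MAX E-box CACGTG. The ZEB and SNAIL E-box CACCTG was also searched and has no match in these 5 windows. The windows lie at chr12:7789152-7789401 on the plus strand (NANOG), chr9:107489770-107490019 on the minus strand (KLF4), chr13:73054726-73054975 and chr13:73058755-73059004 on the plus strand (upstream and downstream start of KLF5), and chr6:34236623-34236872 on the plus strand (HMGA1, 1 of its 2 starts).
NANOG: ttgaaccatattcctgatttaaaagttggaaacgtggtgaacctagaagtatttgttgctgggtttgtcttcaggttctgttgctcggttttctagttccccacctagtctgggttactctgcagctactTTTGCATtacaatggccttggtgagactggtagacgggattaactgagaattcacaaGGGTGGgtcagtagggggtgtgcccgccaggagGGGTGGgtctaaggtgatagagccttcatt
KLF4: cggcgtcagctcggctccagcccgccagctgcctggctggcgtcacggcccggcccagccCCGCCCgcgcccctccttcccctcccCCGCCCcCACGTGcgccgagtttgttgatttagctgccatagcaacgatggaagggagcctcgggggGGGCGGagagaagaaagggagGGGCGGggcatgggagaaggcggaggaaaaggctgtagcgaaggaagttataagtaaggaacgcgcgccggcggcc
KLF5 upstream start: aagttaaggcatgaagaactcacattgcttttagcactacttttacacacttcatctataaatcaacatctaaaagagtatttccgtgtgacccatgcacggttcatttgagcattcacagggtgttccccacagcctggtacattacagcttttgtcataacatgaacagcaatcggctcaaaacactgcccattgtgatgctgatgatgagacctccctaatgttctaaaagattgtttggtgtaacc
KLF5 downstream start: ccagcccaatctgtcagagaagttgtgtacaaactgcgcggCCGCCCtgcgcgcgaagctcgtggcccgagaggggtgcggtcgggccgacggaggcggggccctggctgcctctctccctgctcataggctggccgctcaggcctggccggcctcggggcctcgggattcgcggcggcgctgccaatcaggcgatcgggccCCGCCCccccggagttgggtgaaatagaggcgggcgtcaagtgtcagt
HMGA1: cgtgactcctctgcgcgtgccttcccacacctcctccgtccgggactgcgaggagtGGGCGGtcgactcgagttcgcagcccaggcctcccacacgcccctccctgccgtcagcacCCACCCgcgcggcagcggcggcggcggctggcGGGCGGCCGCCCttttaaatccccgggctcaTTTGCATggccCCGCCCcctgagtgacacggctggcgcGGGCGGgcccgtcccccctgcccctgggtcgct

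The NANOG window holds 1 octamer core, 120 bases before the start, and 2 CACCC boxes. Among all 35116 promoter windows of this length, 3.94% hold TTTGCAT and 31.3% hold CCACCC. The KLF4 window holds 4 GC boxes and 1 MYC and MAX E-box, 157 bases before the start. The upstream KLF5 window holds none of the searched motifs, and the downstream one holds 2 GC boxes. The HMGA1 window holds 5 GC boxes, 1 CACCC box and 1 octamer core, while the window of its other start, not shown, holds 1 octamer core, 1 CACCTG and no GC box. Across all windows, 42.6% hold GGGCGG, 6.34% hold CACGTG and 17.5% hold CACCTG. A match is a run of letters, not a bound site.

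In SUM149PT, 9 of the 10 members passed the filter of a mean of 0.1 FPKM over the 6 libraries and were tested. Of these, 5 were called higher in CSCs (POU5F1, MYC, HMGA1, HMGA2 and EZH2), against 33.3% of all 16037 genes tested. The other 4 were called lower (NANOG, KLF4, KLF5 and BMI1), against 41.5% of all genes. NANOG passed the filter only through the non-CSCs, where it is high, so it had to differ and its call is no support. In HCC1937, 7 members were tested, with 1 called higher (HMGA2, against 10.3% of 15582 genes) and 1 called lower (KLF5, against 15.3%). POU5F1, NANOG and LIN28B fell below the filter in HCC1937, and LIN28B also in SUM149PT. Calls here are from limma, where the Benjamini-Hochberg adjusted p over every tested gene is 0.05 or lower. The shares called were so high in SUM149PT that being called there says little about a member, and the sizes below carry more. Counts of related genes called in either line are to be read beside the shares of all genes given here.

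**Figure D1:**
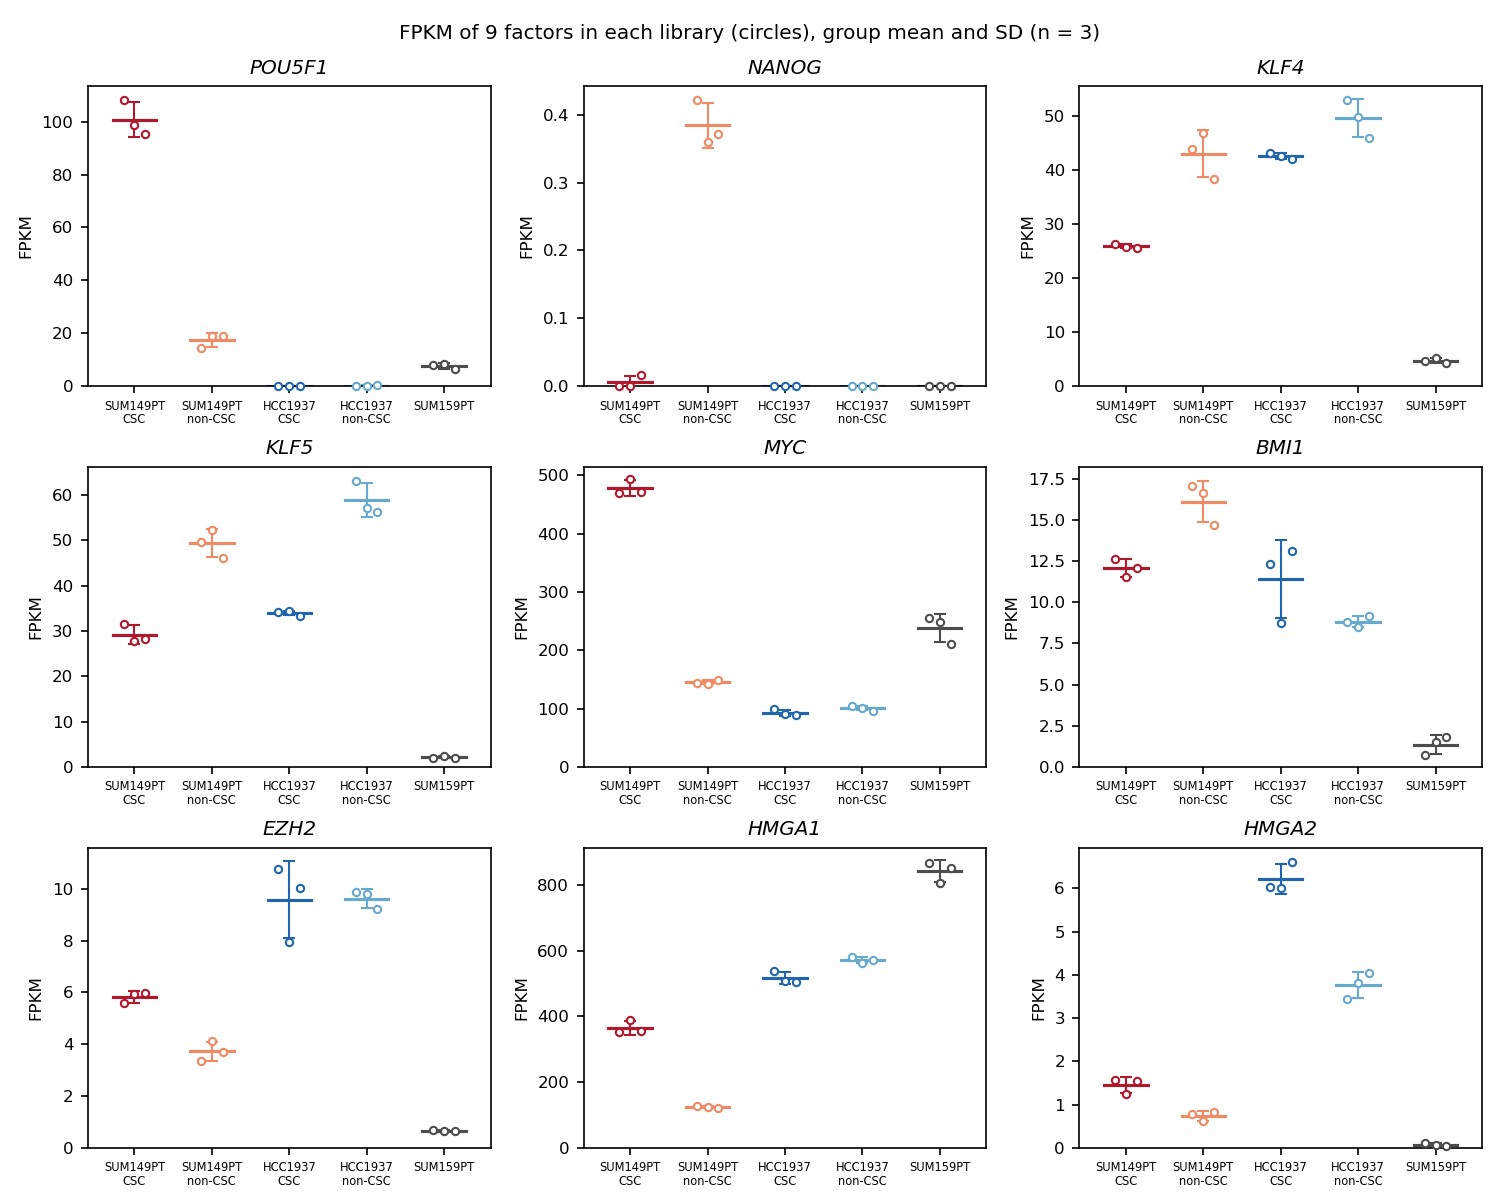
FPKM (y axis, linear, own scale in each panel) of 9 of the 10 members in the 5 groups (x axis). Circles are libraries, horizontal bars are group means and whiskers are the SD (n = 3).

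In the figure of the members by library, POU5F1 and MYC are highest in SUM149PT CSCs, KLF4 and KLF5 are lowest in SUM159PT, and NANOG stays under 0.5 FPKM throughout. LIN28B is not drawn.

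The study set a false discovery rate limit of 0.0001 and a limit of 1 on a score that its methods do not define, taken here as the log2 fold change in either direction. By these, 4 members passed in SUM149PT (POU5F1, NANOG, MYC and HMGA1), against 20.5% of all genes, NANOG again through the non-CSCs alone. The 4 became 1 to 2 with 1 library left out and 0 with the replicate number as a block. In HCC1937 0 members passed, and 0% of all genes did. There 5886 genes had an unadjusted limma p of at most 0.05 and the smallest adjusted p was 0.000128. The study itself reports genes that differed between the fractions of HCC1937, so the limits as read here do not reproduce its selection. The labels do not say that the 3 libraries of a group came from separate cultures, so p-values measure the spread between these libraries, which may be technical. With 3 libraries against 3, an exact two-sided permutation test cannot go below p = 0.10. That smallest value was reached by 9 members in SUM149PT and by 4 in HCC1937 (KLF4, KLF5, HMGA1 and HMGA2), the members whose fractions did not overlap. Of all genes tested, 78.7% did not overlap in SUM149PT and 43.4% in HCC1937. In these bulk libraries, fewer cells expressing a gene and less RNA per cell cannot be told apart.

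POU5F1, the core pluripotency factor, was at 108, 98.8 and 95.5 FPKM in the SUM149PT CSC libraries and at 14.2, 18.7 and 19.0 FPKM in the non-CSC libraries. All 3 CSC libraries were far above all 3 non-CSC libraries. The log2 fold change was 2.55 (SE 0.13, limma adjusted p = 2e-05), a 5.84-fold difference. In SUM159PT POU5F1 was at 7.82, 8.30 and 6.29 FPKM, below both SUM149PT fractions. In HCC1937 it was listed at 0 in all 3 CSC libraries and in 2 of the 3 non-CSC libraries, and at 0.193 FPKM in the remaining one. By mean level, POU5F1 ranked 425 of 19496 genes above 0 in SUM149PT CSCs and 2969 of 20048 in non-CSCs.

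The POU5F1 values carry a limit of position. The gene spans chr6:31164337-31180731 on the minus strand of GRCh38, in the major histocompatibility complex, where it overlaps PSORS1C3 and, on the opposite strand, TCF19. Of 94 other protein-coding genes of the table within 1 Mb, 42 were listed at 0 in all 15 libraries, or 44.7%, against 12.1% of the 18239 protein-coding genes elsewhere. In the 6 HCC1937 libraries, 59 of these 94 genes were at 0, or 62.8%, against 18.1% elsewhere. These neighbors were counted after the POU5F1 values had been seen.

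Genes that every cell uses were among those at 0, such as CLIC1, CSNK2B and ABCF1, so a value of 0 does not show that a gene is silent. TUBB, a beta tubulin of the same region, was at 935 to 1245 FPKM in HCC1937 CSCs but at 1.13 to 3.13 FPKM in SUM149PT CSCs and at 0.26 to 1.21 FPKM in SUM159PT. FLOT1, a membrane raft protein, was listed at 0 in all 6 HCC1937 libraries and was between 0.546 and 4.58 FPKM in the other 9. Levels in this region thus differed between lines by large factors for genes of wide use, and their part in the POU5F1 difference between lines was not tested. Between the SUM149PT fractions, 33 of the 94 neighbors averaged 0.1 FPKM or more, and of these 4 were higher in CSCs without overlap, 15 were lower without overlap and 14 overlapped. DDR1, a collagen receptor picked after its values were seen, was at 11.6, 9.97 and 10.7 FPKM in CSCs and at 263, 256 and 256 FPKM in non-CSCs. PSORS1C3, TCF19 and CCHCR1, the genes closest to POU5F1 on one side or within it, had higher values in CSCs. PSORS1C3 was at 84.8, 86.5 and 78.8 FPKM in CSCs and at 16.7, 12.5 and 46.9 FPKM in non-CSCs. TCF19, a proliferation-linked factor, was at 6.66, 16.8 and 11.8 FPKM in CSCs and at 1.13, 3.41 and 1.17 FPKM in non-CSCs. CCHCR1, the next gene beyond TCF19, was at 26.0, 32.9 and 22.0 FPKM in CSCs and at 4.62, 1.22 and 4.26 FPKM in non-CSCs. For each of these 3 genes the fractions did not overlap. In HCC1937 PSORS1C3 was listed at 0 in all 6 libraries, while TCF19 was at 91.7 to 127 FPKM and CCHCR1 at 106 to 154 FPKM.

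**Figure D2:**
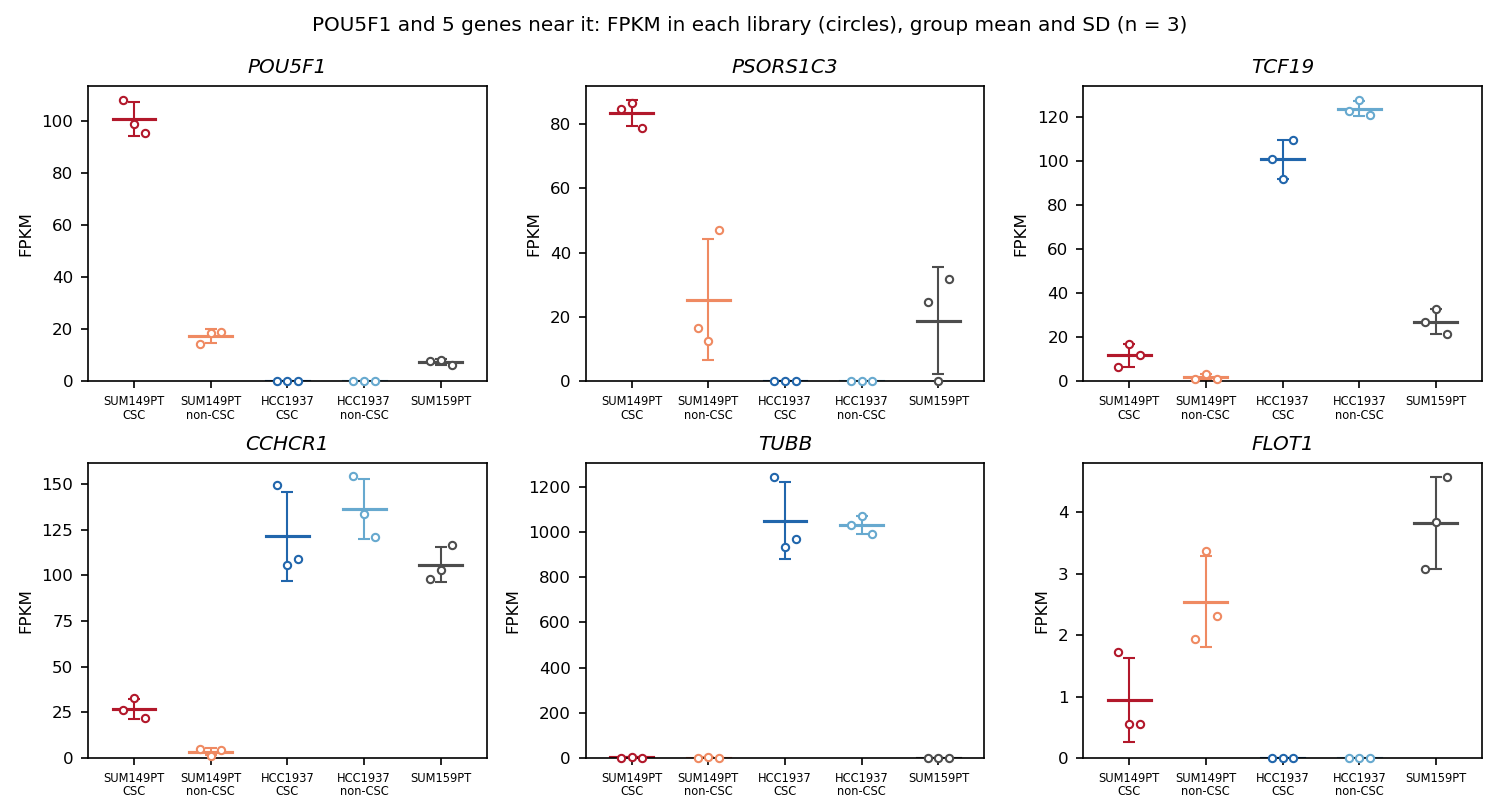
FPKM (y axis, linear, own scale in each panel) of POU5F1 and 5 genes near it on chromosome 6 in the 5 groups (x axis). Circles are libraries, bars are group means and whiskers are the SD (n = 3).

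In the figure of the POU5F1 neighbors, TUBB is at 935 FPKM or more in HCC1937 and at 3.13 FPKM or less in the other lines, while FLOT1 is at 0 in HCC1937. The 5 neighbors were picked after their values were seen.

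Reads of POU5F1 may also be shared with its retrocopies. POU5F1B was at 1.06, 0.70 and 0.771 FPKM in SUM149PT CSCs and at 0.368, 0.191 and 0.475 FPKM in non-CSCs. POU5F1P4 was at 0.382, 0.428 and 0.597 FPKM in CSCs and at 0, 0 and 0.0345 FPKM in non-CSCs. POU5F1P3 was at 0.32, 0.277 and 0.447 FPKM against 0.194, 0.0388 and 0.0353 FPKM. These 3 copies were thus higher in SUM149PT CSCs, as POU5F1 was, at far lower levels, while POU5F1P5 was listed at 0 there. POU5F1B was at 1.89, 1.70 and 1.02 FPKM in SUM159PT. The authors' handling of reads that match several places is not given in the sources used here.

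NANOG, which acts with POU5F1 in embryonic stem cells, moved the other way. It was listed at 0, 0 and 0.0162 FPKM in SUM149PT CSCs and was at 0.422, 0.36 and 0.372 FPKM in non-CSCs. It was listed at 0 in all 6 HCC1937 libraries and all 3 SUM159PT libraries. NANOG values were therefore low, with no overlap between the SUM149PT fractions, and a value of 0 does not show that NANOG RNA was absent. The log2 difference was -2.20, and its size follows the pseudocount of 0.1 added before taking logs: it was -4.83 with 0.01 and -0.46 with 1. The NANOG copies NANOGP4, NANOGP9 and NANOGP10 were listed at 0 throughout.

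LIN28B, the RNA-binding repressor of let-7, was listed at 0 in 14 of the 15 libraries and at 0.00713 FPKM in the second SUM149PT non-CSC library. It passed no filter and was not tested. Its paralog LIN28A was at most 0.0375 FPKM in any library.

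Most of the embryonic pluripotency circuit beyond the members had low values. Of 24 such genes, 16 were below 1 FPKM in all libraries, 7 of them listed at 0 throughout, which does not show that they were silent. SOX2, the usual partner of POU5F1, was at most 0.0692 FPKM. In SUM149PT 6 of the 24 were tested, with 3 higher and 3 lower in CSCs and a median log2 fold change of -0.19, against -0.11 over all genes. Over 16 alternatives 1 to 4 were called lower. TFCP2L1 averaged below 0.1 FPKM in SUM149PT CSCs and passed the filter only through the non-CSCs. Its part in this count and median is therefore no support, and it is named for that reason. KLF2, a KLF factor of naive pluripotency, rose 3.34-fold (adjusted p = 3.63e-05) and TBX3, a T-box factor, rose 1.68-fold (adjusted p = 0.000134), while LEFTY1, an inhibitor of NODAL signaling, fell 2.16-fold (adjusted p = 0.00151). In HCC1937 8 were tested, with 3 higher, 4 lower and a median of -0.33, against -0.03 over all genes. Over 16 alternatives 1 to 3 were called higher and 3 to 4 lower in HCC1937. TBX3 rose 1.71-fold there (adjusted p = 0.000748). TFCP2L1, a naive-state factor, fell 1.90-fold (adjusted p = 0.00456) and ZFP42 (REX1) fell 1.71-fold (adjusted p = 0.00139). Both of these were highest in HCC1937, where ZFP42 was at 7.23, 7.15 and 6.87 FPKM in CSCs and at 13.0, 12.2 and 11.4 FPKM in non-CSCs.

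KLF4, a zinc finger factor that also drives epithelial differentiation, was at 26.3, 25.7 and 25.6 FPKM in SUM149PT CSCs and at 43.9, 46.9 and 38.4 FPKM in non-CSCs. HCC1937 had KLF4 at 43.2, 42.5 and 42.1 FPKM in CSCs and at 53.0, 49.8 and 46.0 FPKM in non-CSCs. SUM159PT had the lowest KLF4, at 4.55, 5.24 and 4.32 FPKM. In both sorted lines every CSC library was below every non-CSC library. The SUM149PT difference was a log2 fold change of -0.73 (SE 0.09, limma adjusted p = 0.000545). The HCC1937 difference was -0.22 (SE 0.08, limma adjusted p = 0.0939) and missed the threshold, with adjusted p between 0.045 and 0.424 over 16 alternatives. The lower edge of that range came from a mean trend in the prior variance, the one alternative that brought a call.

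KLF5, a relative of KLF4 found in basal epithelial cells, was at 31.5, 27.8 and 28.1 FPKM in SUM149PT CSCs and at 49.7, 52.3 and 46.1 FPKM in non-CSCs. HCC1937 had KLF5 at 34.1, 34.4 and 33.4 FPKM in CSCs and at 63.1, 57.1 and 56.3 FPKM in non-CSCs. SUM159PT held 2.06, 2.35 and 2.03 FPKM. No library of one fraction overlapped with the other fraction of its line. The log2 fold changes were -0.76 in SUM149PT (SE 0.08, limma adjusted p = 0.000351) and -0.79 in HCC1937 (SE 0.07, adjusted p = 0.0012). KLF5 was the only member called lower in both lines. The difference between these changes was 0.03 (SE 0.10, adjusted p = 0.824).

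Of 12 other KLF genes tested in SUM149PT, 9 were higher and 2 lower in CSCs, with a median log2 fold change of 0.84 against -0.11 over all genes. KLF8 averaged below 0.1 FPKM in non-CSCs and passed the filter only through the CSCs. Its part in the count and the median is therefore no support, and it is named for that reason. KLF15 rose 6.59-fold from a low level (adjusted p = 3.47e-06), KLF2 rose as given above, and KLF3, a repressor, fell 2.57-fold (adjusted p = 1.42e-05). In HCC1937 6 of 13 were higher and 2 lower, with a median of 0.10 against -0.03. Over 16 alternatives 3 to 6 were called higher and 1 to 3 lower, with 3 higher when any 1 of the non-CSC libraries was left out or the replicate number was a block. KLF15 rose 1.54-fold (adjusted p = 0.00359) and KLF7 rose 1.64-fold (adjusted p = 0.00244). KLF2 rose 1.69-fold (adjusted p = 0.0229), a call that was lost in 5 of 16 alternatives, where its adjusted p reached 0.0647.

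Epithelial genes were lower in the CSCs of both lines, as KLF5 was, while KLF4 was called lower in SUM149PT only. Of 16 epithelial markers, 15 were lower and 0 higher in SUM149PT CSCs, with a median log2 fold change of -4.02. CLDN3 was at 0, 0.0981 and 0.0392 FPKM in SUM149PT CSCs and passed the filter only through the non-CSCs. Its part in this count and median is therefore no support, and it is named for that reason. In HCC1937 14 of the 16 were lower and 0 higher, with a median of -2.15. Their summed level was 203 to 214 FPKM in the SUM149PT CSC libraries and 2613 to 2646 FPKM in the non-CSC libraries. It was 583 to 683 FPKM in HCC1937 CSCs, 1795 to 2075 FPKM in HCC1937 non-CSCs and 277 to 293 FPKM in SUM159PT. KRT18, a simple epithelial keratin, had the highest mean of these markers over all 15 libraries, but the order differed between groups. In SUM149PT non-CSCs KRT19 (mean 1127 FPKM), CLDN4 (434) and CLDN7 (241) were above KRT18 (215), while KRT19 in SUM149PT CSCs (41.9 against 40.9) and KRT8 in HCC1937 CSCs (216 against 212) were slightly above it. No marker was at 0 in all libraries. The part of this difference in the KLF4 and KLF5 values was not tested.

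In SUM149PT the epithelial genes KRT19, CLDN7 and CDH1 (E-cadherin) fell 26.8-fold, 28.2-fold and 22.9-fold, with adjusted p of 1.4e-06, 1.4e-06 and 1.51e-06. In HCC1937 RAB25, GRHL2 and ELF3 fell 6.90-fold, 5.56-fold and 5.29-fold, with adjusted p of 0.000245, 0.000225 and 0.000128. Basal genes split in SUM149PT, with 3 of 8 higher and 4 lower and a median of -0.28, led by falls of KRT5 (24.7-fold, adjusted p = 1.4e-06), KRT6A (24.0-fold, 1.49e-06) and KRT17 (8.13-fold, 1.98e-06). In HCC1937 7 of the 8 were lower, with a median of -1.27, led by KRT6A (5.29-fold, adjusted p = 0.000303), COL17A1 (3.00-fold, 0.000192) and ITGB4 (2.66-fold, 0.000175).

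Mesenchymal genes mostly went the other way. In SUM149PT 10 of 12 tested were higher in CSCs and 2 lower, with a median of 2.06. VIM (vimentin) rose 8.62-fold (adjusted p = 6.27e-06), PDGFRB 8.59-fold (9.2e-06) and ZEB1 7.96-fold (1.23e-05). The 2 lower genes, named after their values were seen, were SNAI1 and TWIST1. SNAI1 was at 58.9, 65.4 and 61.5 FPKM in SUM149PT CSCs and at 379, 371 and 368 FPKM in non-CSCs. TWIST1 was at 3.28, 3.40 and 3.68 FPKM in CSCs and at 7.48, 7.76 and 6.11 FPKM in non-CSCs. In HCC1937 9 of 11 tested were higher and 0 lower, with a median of 1.63, led by VIM (5.95-fold, adjusted p = 0.000502), ZEB2 (4.91-fold, 0.000595) and ZEB1 (4.26-fold, 0.000464). Of 9 blood cell markers, 8 of leukocytes and the hemoglobin gene HBB, 7 stayed below 1 FPKM in all libraries, and CD3E and MS4A1 were listed at 0 throughout. The 2 that were expressed, CD14 and CD68, were both lower in SUM149PT CSCs (18.8-fold and 2.97-fold, adjusted p of 3.8e-06 and 5.11e-06), while CD14 was 1.99-fold higher in HCC1937 CSCs (adjusted p = 0.00186).

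MYC, the growth-promoting bHLH factor, was at 470, 494 and 472 FPKM in SUM149PT CSCs and at 144, 142 and 149 FPKM in non-CSCs. HCC1937 had MYC at 99.2, 90.5 and 89.5 FPKM in CSCs and at 105, 102 and 96.5 FPKM in non-CSCs. SUM159PT was in between, at 255, 248 and 211 FPKM. All SUM149PT CSC libraries were above every other library of the series, and the HCC1937 fractions overlapped. The SUM149PT log2 fold change was 1.72 (SE 0.05, limma adjusted p = 4.27e-06), or 3.30-fold. In HCC1937 it was -0.12 (SE 0.08, adjusted p = 0.309). The difference between the lines was 1.84 (SE 0.08, adjusted p = 8.73e-08). By mean level MYC ranked 85 of 19496 genes in SUM149PT CSCs and 518 of 18973 in HCC1937 CSCs.

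**Figure D3:**
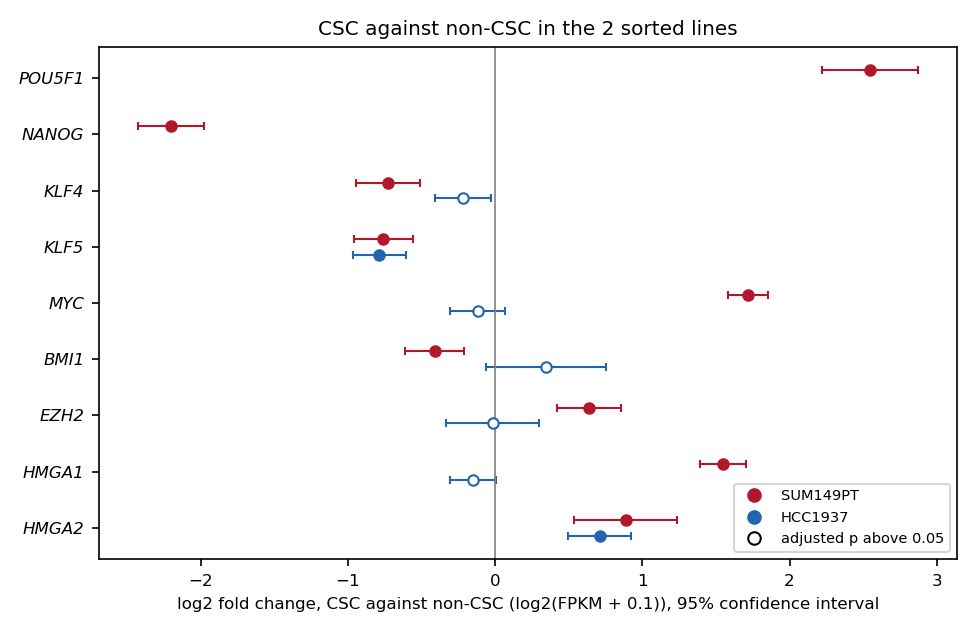
Log2 fold change of CSCs against non-CSCs (x axis, on log2(FPKM + 0.1)) for 9 members (y axis) in SUM149PT (red) and HCC1937 (blue), with 95% confidence intervals from limma (n = 3 libraries per fraction). Filled points have an adjusted p of at most 0.05 and open points do not.

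In the figure of the fold changes, KLF4, KLF5 and HMGA2 lie on the same side of 0 in both lines, with KLF4 not called in HCC1937. MYC and HMGA1 are far right of 0 in SUM149PT alone. Members below the filter in HCC1937 have no blue point.

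Of 17 MYC network genes tested in SUM149PT, 8 were higher and 5 lower in CSCs, with a median log2 fold change of 0.13 against -0.11 over all genes. MYCN, the neuronal paralog of MYC, was at 4.68, 4.02 and 4.27 FPKM in CSCs and at 0.412, 0.75 and 0.773 FPKM in non-CSCs, a 6.10-fold rise (adjusted p = 0.000135). MYCL, another paralog, was at 0.0613, 0.0925 and 0.035 FPKM in CSCs and 1.15, 1.07 and 1.09 FPKM in non-CSCs. It averaged below 0.1 FPKM in CSCs and passed the filter only through the non-CSCs, so its call is no support, and it was named after its values were seen. FBXW7, the ubiquitin ligase subunit that marks MYC for degradation, fell 3.94-fold (adjusted p = 4.82e-06), and MNT, a MAX-binding antagonist of MYC, fell 2.23-fold (adjusted p = 1.44e-05). In HCC1937 2 of 16 were higher and 2 lower, against 10.3% and 15.3% of all genes, with a median of -0.04 against -0.03. Over 16 alternatives 0 to 2 were called higher and 1 to 3 lower in HCC1937. PIM1, a kinase, fell 1.68-fold there (adjusted p = 0.00271), MXD1, a MAX-binding repressor, fell 1.39-fold (0.0133), and MXD4, another, rose with a log2 fold change of 0.58 (0.0289). The MXD1 call was lost in 2 of 16 alternatives and the MXD4 call in 4.

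Textbook MYC targets were mostly higher in SUM149PT CSCs. Of 20 such genes, 15 rose and 2 fell, with a median log2 fold change of 0.69 against -0.11 over all genes. ODC1, the first enzyme of polyamine synthesis, was at 113, 121 and 114 FPKM in CSCs and at 18.3, 18.3 and 19.5 FPKM in non-CSCs, or 6.17-fold higher (adjusted p = 2.16e-06). FBL (fibrillarin, of nucleolar RNA processing) rose 2.50-fold (2.36e-05) and PES1, a ribosome assembly factor, rose 2.35-fold (1.44e-05). In HCC1937, where MYC was not called, 4 of the 20 were higher and 0 lower, with a median of 0.20 against -0.03. ODC1 rose 1.63-fold (adjusted p = 0.0092), CAD, an enzyme of pyrimidine synthesis, rose 1.41-fold (0.0159), and TFRC, the transferrin receptor, rose 1.35-fold (0.00619). The CAD call was lost in 2 of 16 alternatives. Over 16 alternatives, 2 to 10 of the 20 were called higher in HCC1937, with 2 when 1 library was left out and 10 after rescaling to equal totals.

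HMGA1, an architectural chromatin protein, was at 352, 389 and 355 FPKM in SUM149PT CSCs and at 127, 124 and 123 FPKM in non-CSCs. HCC1937 had HMGA1 at 537, 509 and 504 FPKM in CSCs and at 582, 562 and 572 FPKM in non-CSCs. SUM159PT had 868, 805 and 853 FPKM, the highest as deposited, an order that other scalings changed (values below). The SUM149PT fractions were far apart, and the HCC1937 fractions were close but did not overlap, with the non-CSCs above. In SUM149PT HMGA1 was 2.93-fold higher in CSCs (log2 fold change 1.55, SE 0.06, limma adjusted p = 8.69e-06). In HCC1937 the log2 fold change was -0.15 (SE 0.06, adjusted p = 0.152). The lines differed by 1.70 (SE 0.08, adjusted p = 9.31e-08). HMGA1 was among the most abundant RNAs in all groups, at rank 62 of 19405 in HCC1937 non-CSCs and rank 357 of 20048 in SUM149PT non-CSCs. Its pseudogene HMGA1P8 was between 0.281 and 0.972 FPKM in all libraries, and HMGA1P6 and HMGA1P7 were listed at 0.

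HMGA2, its relative and a let-7 target, was at 1.58, 1.24 and 1.55 FPKM in SUM149PT CSCs and at 0.783, 0.613 and 0.828 FPKM in non-CSCs. HCC1937 had HMGA2 at 6.03, 5.999 and 6.61 FPKM in CSCs and at 3.45, 3.81 and 4.04 FPKM in non-CSCs. SUM159PT held 0.105, 0.0727 and 0.0479 FPKM. HMGA2 was the only member called higher in the CSCs of both lines, without overlap in either. The log2 fold changes were 0.89 in SUM149PT (SE 0.14, limma adjusted p = 0.0019) and 0.71 in HCC1937 (SE 0.09, adjusted p = 0.00308). They differed by 0.18 (SE 0.17, adjusted p = 0.392), and after quantile normalization by 0.61 (adjusted p = 0.0136, the lowest of 20 alternatives that reached up to 0.743). In SUM149PT the value moved to 0.49 with a pseudocount of 1 and to 1.36 after quantile normalization. RPSAP52, which overlaps HMGA2 on the opposite strand, was at 0.922, 0.511 and 0.786 FPKM in SUM149PT CSCs and at 0.0622, 0.111 and 0.374 FPKM in non-CSCs, so it was higher in the same fraction as HMGA2. Whether strand was used in counting is not given in the sources used here, so reads of the overlap cannot be told apart.

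Of 17 genes of the LIN28 and let-7 axis beyond LIN28B, 15 reached 1 FPKM in some library and 2 stayed below it in all. Of 15 genes tested in SUM149PT, 10 were higher and 5 lower in CSCs, with a median log2 fold change of 0.33 against -0.11 over all genes. IGF2BP3, an oncofetal RNA-binding protein, rose 3.57-fold (adjusted p = 3.56e-05) and DROSHA, the nuclear microRNA-processing enzyme, rose 2.67-fold (1.07e-05), while ARID3B fell 1.75-fold (0.000349). In HCC1937 0 of 15 were higher and 1 lower, with a median of 0.08 against -0.03. That gene was TARBP2, a partner of DICER1, at 1.25-fold lower (adjusted p = 0.0186), and its call was lost in 6 of 16 alternatives. MicroRNAs were not analysed here.

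BMI1, a core subunit of Polycomb repressive complex 1, was at 12.6, 11.5 and 12.1 FPKM in SUM149PT CSCs and at 17.0, 16.6 and 14.7 FPKM in non-CSCs. HCC1937 had BMI1 at 12.3, 8.72 and 13.1 FPKM in CSCs and at 8.79, 8.48 and 9.17 FPKM in non-CSCs. SUM159PT held 0.714, 1.51 and 1.84 FPKM. The SUM149PT fractions did not overlap, with the CSCs below, and the HCC1937 fractions overlapped through the second CSC library. The SUM149PT log2 fold change was -0.41 (SE 0.08, limma adjusted p = 0.00451). With all 15 libraries in the fit its adjusted p was 0.164, the highest of 16 alternatives, and the lowest was 0.000902. In HCC1937 it was 0.35 (SE 0.17, adjusted p = 0.191). Without the second CSC library, the HCC1937 value became 0.53 with an adjusted p of 0.0183, the lowest of 16 alternatives that reached up to 0.395.

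BMI1 shares its exons with the read-through gene COMMD3-BMI1. That gene was at 1.70, 3.93 and 0.000341 FPKM in HCC1937 CSCs, and the highest of these values fell in the library with the lowest BMI1. It was at most 1.04 FPKM in the other libraries, and how reads were split between both genes is uncertain. COMMD3, the upstream partner, was at 13.0 to 24.5 FPKM throughout. Over the whole list of copies and overlapping genes of the members, 6 of 9 tested were higher in SUM149PT CSCs and 0 lower, with a median of 1.32. Over 16 alternatives 3 to 7 were called higher. POU5F1P3, POU5F1P4 and COMMD3-BMI1 averaged below 0.1 FPKM in SUM149PT non-CSCs and passed the filter only through the CSCs. COMMD3-BMI1 did so through the second CSC library alone, at 0.648 FPKM. The part of these genes in the counts and the median is therefore no support. In HCC1937 0 of 7 tested were called, and the median was -0.07. In SUM149PT TCF19 rose 6.28-fold (adjusted p = 0.0051) and PSORS1C3 rose 3.88-fold (0.0124). The PSORS1C3 call was lost with all 15 libraries in the fit.

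Of 16 other genes of Polycomb repressive complex 1 tested in SUM149PT, 8 were higher and 3 lower, with a median of 0.24 against -0.11 over all genes. CBX6 rose 2.15-fold (adjusted p = 4.59e-05), PHC2 1.89-fold (2.86e-05) and PCGF5 1.76-fold (0.000149). In HCC1937 2 of 16 were higher and 3 lower, with a median of 0.07. CBX7 fell 1.55-fold (adjusted p = 0.00736), PHC2 rose 1.42-fold (0.00654) and RNF2, a ubiquitin ligase of the complex, rose 1.44-fold (0.0395). The RNF2 call was lost in 7 of 16 alternatives and the CBX7 call in 1. RING1 and PCGF2 of this list were listed at 0 in all 15 libraries, and RING1 is a gene of wide use.

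EZH2, the methyltransferase of Polycomb repressive complex 2, was at 5.58, 5.93 and 5.99 FPKM in SUM149PT CSCs and at 3.36, 4.11 and 3.69 FPKM in non-CSCs. HCC1937 had EZH2 at 10.8, 7.94 and 10.04 FPKM in CSCs and at 9.86, 9.78 and 9.20 FPKM in non-CSCs. SUM159PT was at 0.681, 0.662 and 0.666 FPKM. EZH2 was higher in all SUM149PT CSC libraries than in the non-CSC libraries, and the HCC1937 fractions overlapped. The SUM149PT log2 fold change was 0.64 (SE 0.09, limma adjusted p = 0.00103), or 1.56-fold. In HCC1937 it was -0.02 (SE 0.13, adjusted p = 0.943).

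Of 12 other genes of Polycomb repressive complex 2 and its antagonists tested in SUM149PT, 5 were higher and 5 lower, with a median of 0.06. Over all genes 33.3% were higher and 41.5% lower, with a median of -0.11, so these counts say little about the list. Over 16 alternatives 3 to 6 were called higher and 3 to 5 lower. RBBP7, a histone-binding subunit, rose 2.21-fold (adjusted p = 1.78e-05), EED, a core subunit, fell 1.94-fold (7.75e-05), and KDM6B, a demethylase that removes the mark of the complex, fell 1.93-fold (6.14e-05). In HCC1937 0 of 12 were higher and 1 lower, with a median of -0.09. That gene was EZH1, at 1.24-fold lower (adjusted p = 0.0424), and its call was lost in 9 of 16 alternatives.

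Of 20 proliferation genes tested in SUM149PT, 9 were higher and 8 lower in CSCs, against 33.3% and 41.5% of all genes, so these counts say little about the list. Their median was 0.15 against -0.11 over all genes. CCNB2, a mitotic cyclin, rose 2.21-fold (adjusted p = 9.35e-05), while E2F1 fell 3.26-fold (2.71e-05) and MCM2, of the replicative helicase, fell 2.33-fold (1.49e-05). In HCC1937 1 of 20 was higher and 0 lower, with a median of 0.00 against -0.03. That gene was RRM2, at 1.28-fold higher (adjusted p = 0.0472), and its call was lost in 8 of 16 alternatives. The summed level of the 20 genes was 155 to 176 FPKM in SUM149PT, 830 to 962 FPKM in HCC1937 and 446 to 480 FPKM in SUM159PT.

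**Figure D4:**
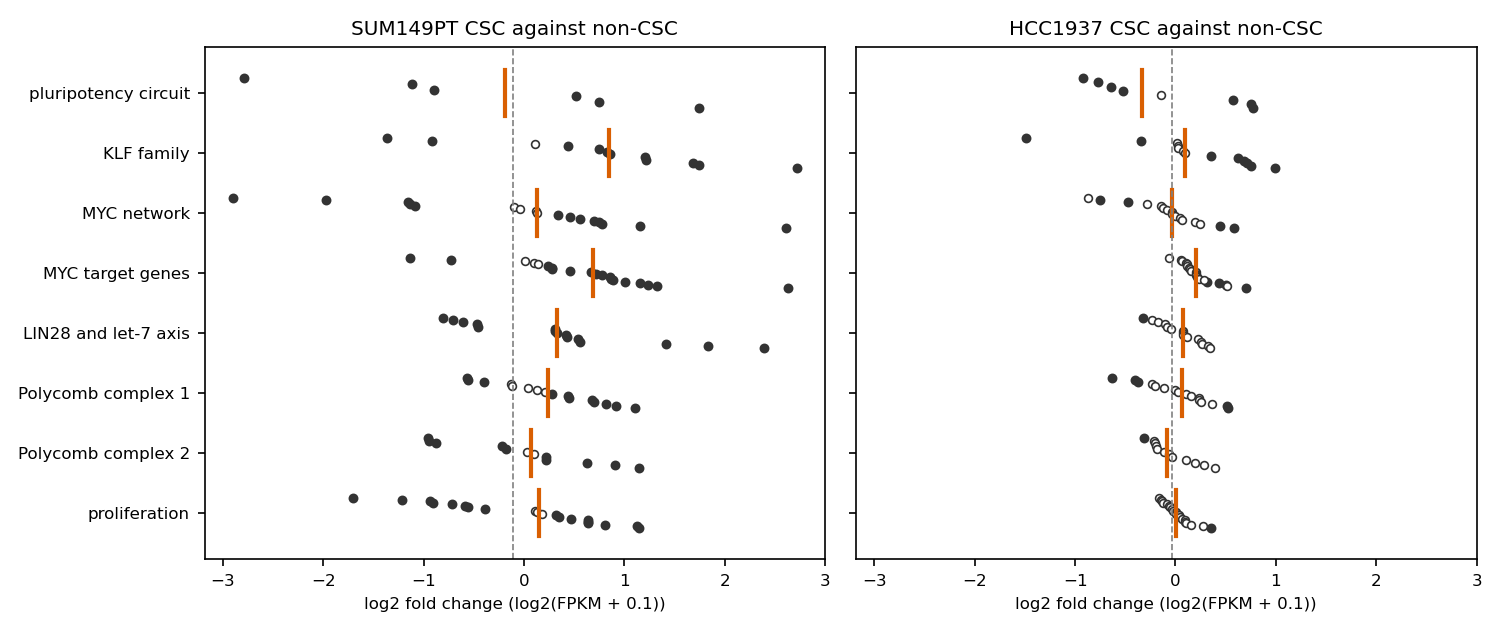
Log2 fold change of CSCs against non-CSCs (x axis, on log2(FPKM + 0.1)) for the genes of 8 lists related to the members (y axis), in SUM149PT (left) and HCC1937 (right). Each point is a gene, filled where the limma adjusted p is at most 0.05, orange bars are list medians and the dashed line is the median of all genes tested.

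In the figure of the related lists, the KLF family and MYC target lists lie right of the dashed line in SUM149PT, at medians of 0.84 and 0.69, and the spread is narrower in HCC1937. Medians in SUM149PT were also above that of all genes for the MYC network (0.13), the LIN28 and let-7 axis (0.33) and proliferation (0.15). The same held for Polycomb repressive complexes 1 (0.24) and 2 (0.06), while the pluripotency circuit (-0.19) was below.

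The change between CSCs and non-CSCs differed between SUM149PT and HCC1937 for 6 of the 8 members tested for it, against 61.1% of all 16451 genes. It was larger in SUM149PT for MYC, HMGA1 and EZH2 and smaller or more negative for KLF4 and BMI1, and KLF5 and HMGA2 were not called. The 6 include POU5F1, which entered this fit only through SUM149PT and was listed at 0 in 5 of the 6 HCC1937 libraries, so it had no HCC1937 change to compare and its call is no support. NANOG and LIN28B fell below the filter in this fit.

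Between lines, the CSC fractions of HCC1937 and SUM149PT differed in 7 of 8 members tested (76.9% of all 16373 genes), and the non-CSC fractions in 8 of 8 (76.8%). Both counts include POU5F1, which was listed at 0 in 5 of the 6 HCC1937 libraries and entered the fit only through the other lines, so its calls are no support. HMGA2 was higher in HCC1937 by 2.03 (SE 0.14, limma adjusted p = 2.55e-08) among CSCs and by 2.21 (SE 0.14, adjusted p = 1.25e-08) among non-CSCs, on the log2 scale. EZH2 was higher in HCC1937 by 0.70 (SE 0.10, adjusted p = 4.69e-05) and 1.35 (SE 0.10, adjusted p = 9.72e-08). MYC was lower in HCC1937, with -2.36 (SE 0.08, adjusted p = 3.15e-11) among CSCs and -0.52 (SE 0.08, adjusted p = 4.46e-05) among non-CSCs. The median of all genes was 0.22 and 0.09 in these comparisons. HMGA1 was 4.59-fold higher in HCC1937 non-CSCs (adjusted p = 7.43e-12) and 1.42-fold higher in the CSCs (adjusted p = 5.08e-06). The small differences of KLF4 among non-CSCs (0.21) and of KLF5 among CSCs (0.22) and non-CSCs (0.25) were fragile. Of 23 alternatives, the KLF4 call was lost in 15 and its direction changed in 1, and the KLF5 calls were each lost in 5, among them scalings and single libraries left out, with a changed direction in 1 for the CSCs.

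SUM159PT differed from SUM149PT CSCs in 8 of 8 members tested (81.7% of all genes) and from HCC1937 CSCs in 8 of 8 (84.8%). POU5F1 was lower than in SUM149PT CSCs (-3.74), and its call against HCC1937 CSCs, all listed at 0, is no support. The median gene was lower in SUM159PT by -0.60 and -0.85 on the log2 scale. The log2 fold changes as fitted, with these medians not subtracted, were for KLF5 -3.70 and -3.93, for KLF4 -2.44 and -3.16, for BMI1 -3.15 and -3.05, for EZH2 -2.95 and -3.64, and for HMGA2 -3.16 and -5.18. KLF5, KLF4, BMI1 and EZH2 were lower than in the CSCs of both sorted lines under every scaling tried. HMGA2 was lower too, but it averaged below 0.1 FPKM in SUM159PT and entered the fit only through the sorted lines. Its calls, which both counts of 8 include, are therefore no support, and its size follows the pseudocount. MYC was lower than in SUM149PT CSCs (-1.01, SE 0.08, limma adjusted p = 4.6e-08) and higher than in HCC1937 CSCs (1.35, SE 0.08, adjusted p = 2.15e-09). Over 23 alternatives these MYC values ranged from -2.10 to -0.70 and from 0.35 to 1.90. HMGA1 was higher than in both as deposited, by 1.20 and 0.70, but both depended on scaling. Against HCC1937 CSCs it turned to -0.73 after quantile normalization and to -0.30 after rescaling to equal totals, and against SUM149PT CSCs to -0.0207 and 0.12, neither of them called.

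Over the 15 libraries, the genes with patterns most like each member were described by Pearson's r of log2(FPKM + 0.1) among 12163 genes that average 1 FPKM or more. The libraries fall into 5 groups, so r mostly reflects group means. POU5F1 was most like SYTL3, MAFK and PDLIM3 (each 0.992). MYC was most like JAM3 (0.986), LAYN (0.985) and FOXK1 (0.983). KLF4 was most like TOB1, PAFAH1B1 and ZNF761 (each 0.996), and KLF5 was like GBP3 (0.998) and NT5C2 (0.996). BMI1 was most like PUS7L (0.990), ZCCHC11 (0.989) and SNX2 (0.988). EZH2 was most like HNRNPA3 (0.997) and LUC7L3 (0.996). HMGA1 was most like PSMF1 (0.993), KIAA0101 (0.987) and APOL3 (0.987), and HMGA2 was most like MZT1 (0.995), PODXL (0.992) and RASAL2 (0.992).

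ERBB2, the receptor HER2, was at 3.39 to 20.0 FPKM over the series and was lower in the CSCs of both sorted lines, 1.82-fold in SUM149PT (limma adjusted p = 0.00018) and 1.72-fold in HCC1937 (adjusted p = 0.00124). ESR1 fell 3.59-fold in HCC1937 CSCs (adjusted p = 0.000537). In SUM149PT, where it was named after its values were seen, it was at 0.0688, 0.103 and 0.0506 FPKM in CSCs and at 0.948, 1.19 and 0.774 FPKM in non-CSCs, and it passed the filter there only through the non-CSCs.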

How the data were processed

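Polyadenylated RNA of 15 libraries was sequenced on a HiSeq instrument. Per the submitters' processing notes, reads were aligned to GRCh38 with Bowtie2, and the deposited values are FPKM per gene symbol made by the authors. The counting tool, annotation, strand setting and handling of multiply matching reads are not given in the sources used here. FPKM was used as deposited and analysed as log2(FPKM + 0.1), so fold changes of genes near 0 are understated. Genes that averaged 0.1 FPKM or more in a fit's libraries were tested with limma 3.58.1 in R 4.3.3 (lmFit, eBayes), with Benjamini-Hochberg adjustment over all genes tested. Each sorted line was fitted on its own 6 libraries, the difference between lines on the 12 sorted libraries, and comparisons of lines on all 15. Single members were also tested by exact permutation.

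The members, lists and rules were chosen with earlier results of these data known. By name, each list gives the 3 genes with the largest absolute log2 fold change among those called that average 1 FPKM or more (the report says where a gene was named outside this rule), and each member with a group mean of at least 1 FPKM up to 3 genes among those of highest Pearson r. The fits were tested on simulated data. Alternatives covered the pseudocount, the filter, 3 scalings, the variance prior, the libraries in the fit, a replicate block and leaving out each library. Tables and figures used Python 3.11.15. Gene positions are from GENCODE and promoters from RefSeq.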

Additional observations from a re-analysis of the deposited data

Results flagged for a closer look

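The difference between CSCs and non-CSCs was compared between SUM149PT and HCC1937 by an interaction term in limma over the 12 sorted libraries, and 6 members passed, 5 of them tested in both lines. On the log2 scale, the SUM149PT change minus the HCC1937 change was 3.06 for POU5F1 (adjusted p = 0.00039), 1.84 for MYC (8.73e-08), 1.70 for HMGA1 (9.31e-08), 0.65 for EZH2 (0.00489), -0.51 for KLF4 (0.00285) and -0.76 for BMI1 (0.00617). Of all 16451 genes, 61.1% also differed. POU5F1 entered this fit only through SUM149PT and was listed at 0 in 5 of the 6 HCC1937 libraries, so there was no HCC1937 change to compare, and its value follows those libraries and the pseudocount (2.55 to 3.999 over 20 alternatives).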

How the results depend on the processing

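Of 1150 values of the members under alternatives, 1104 kept their direction and their side of the threshold, 27 lost and 3 gained a call, and 16 changed direction. In SUM149PT 5 members stayed called higher under every alternative run, and 4 lower under all but 2. With a minimum of 1 FPKM 3 were, as NANOG fell below the filter. With all 15 libraries in the fit 2 were, as NANOG fell below the filter and BMI1 lost its call. The 4 members at the limits of the study became 1 to 2 when 1 library was left out, which leaves fewer libraries. In HCC1937 2 members were called lower with a trend in the variance prior (KLF4 was added), and 1 to 2 higher when 1 library was left out (BMI1 was added without the second CSC library).

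With the replicate number as a block, 0 members passed the limits of the study in SUM149PT, 11492 genes against 11993 were called there and 3066 against 3985 in HCC1937, and no member gained or lost a call at an adjusted p of 0.05. Same-numbered libraries of the fractions correlated by 0.14, 0.02 and 0.13 in SUM149PT and by -0.13, -0.05 and -0.03 in HCC1937 in their deviations from the group means, so the numbers were not taken as pairs.

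Values that changed direction were mostly near 0. In HCC1937 CSCs against non-CSCs, EZH2 became 0.0454 after quantile normalization, 0.11 after rescaling to equal totals and -0.10 to 0.11 with 1 library left out, and MYC 0.0066 after rescaling to equal totals. In the difference between lines, HMGA2 became -0.10 with a pseudocount of 1, and KLF5 -0.0529 after rescaling to equal totals and -0.0284 to 0.0715 with 1 library left out. For HCC1937 against SUM149PT, upper quartile scaling gave KLF5 -0.0187 in CSCs and KLF4 -0.0293 in non-CSCs, and BMI1 in CSCs ranged from -0.21 to 0.0778 with 1 library left out. For SUM159PT, HMGA1 became -0.0207 against SUM149PT CSCs after quantile normalization, and against HCC1937 CSCs -0.73 after quantile normalization and -0.30 after rescaling to equal totals. The cause was not tested.

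Scaling moved the median of all genes. It went from -0.11 to 0.10 in SUM149PT after quantile normalization, and the share of higher calls from 44.6% to 54.9%. In HCC1937 it went from -0.03 to 0.09 after rescaling to equal totals, with the share of higher calls from 40.3% to 56.1%, and to 53.0% after quantile normalization. Against SUM149PT CSCs, the share higher in SUM159PT was 34.7% as deposited, 50.6% after quantile normalization and 17.3% after rescaling to equal totals. Depth is unknown, so the counting error of values near 0 could not be estimated.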
